A study of Mus musculus with 6 samples.

Results

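The collagen gene family was examined in mouse heart 6 months after the adrenal glands had been removed. Its members were all noncontrol probes whose gene name in the array design is Col followed by a digit. This took 82 probes with 41 gene names, of 41174 noncontrol probes and 28785 gene names in all. One of these names, Col4a3bp, belongs to a ceramide transfer protein whose current symbol is Cert1. It is not a collagen and was left out of the classes. The remaining 40 collagen genes, read by 78 probes, comprised 11 fibrillar collagens, 6 type IV collagens of basement membranes and 23 other collagens. Another 2 collagens, Col6a6 and Col26a1, carry older names in the array design and lay outside this choice.

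Total heart RNA of 6 male C57BL/6 mice, an inbred laboratory strain, was read on 1-colour Agilent arrays with probes of 60 bases, each heart on an array of its own. The adrenalectomized group held 3 mice whose adrenal glands, the main source of corticosterone and aldosterone, were removed at 1 month of age, and the sham group held 3 mice operated on without losing the glands. The labels place collection 6 months after surgery in one field and call the mice 6 months old in another, so their exact age is not settled. The labels do not say which parts of the heart were taken.

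Collagens are secreted proteins of 3 chains wound into a triple helix, in which glycine opens each unit of the Gly-X-Y repeat. Fibrillar collagens assemble into the fibres that give the heart wall its stiffness, with types I and III as the bulk and type V at the core of the fibres. Type IV collagen forms the sheet-like network of basement membranes around cardiac muscle cells and capillaries. Other collagens decorate fibrils, form beaded filaments or short-chain networks, or stay anchored in the cell membrane.

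A level is given here as log2 of the processed intensity relative to the 75th percentile of its array, so that 0 is that percentile, and a difference is the adrenalectomized minus the sham mean of this level. Levels of different probes depend on the probe and were not compared with each other. The summed levels of the marker lists below do add them, so the brightest probes weigh most there. A gene was tested when either group had a probe well above background on all of its 3 arrays, and it is represented by its tested probe of highest mean level. That left 30 of the 40 collagens and 16948 genes in all. The arrays correlated pairwise at a Pearson r of 0.982 or more across genes (genes are not replicates). Precision is limited by how many arrays there are: the standard error (SE) of the difference had a median of 0.159 over the tested collagens and 0.141 over all genes. All sham arrays and adrenalectomized replicate 1 shared a slide, and adrenalectomized replicates 2 and 3 lay on another slide without a sham array. A fit with the slide as a block therefore gives the difference within the first slide, where 1 adrenalectomized heart is set against the 3 sham hearts on the assumption of equal spread.

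Some of the probes lie in the triple helix and show the repeat in their own letters. Of the 78 collagen probes, 3 hold 5 or more successive Gly-X-Y repeats in a reading frame free of stop codons, and all 3 read fibrillar collagens and were tested. They are shown 5′ to 3′ as the array design gives them, with the glycine codons of the repeat in capitals.
Col5a1: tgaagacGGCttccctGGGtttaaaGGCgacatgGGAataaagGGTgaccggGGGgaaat
Col5a3: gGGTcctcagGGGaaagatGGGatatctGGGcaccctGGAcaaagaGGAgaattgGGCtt
Col11a2: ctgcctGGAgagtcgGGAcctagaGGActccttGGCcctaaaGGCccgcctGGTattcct
On the mm7 mouse assembly, to which the array was designed, they lie at chr2:27994034-27996457 on the plus strand, chr9:20655471-20656200 on the minus strand and chr17:32131401-32131567 on the plus strand. Each of these spans is longer than the 60 bases of the probe, so the probe joins stretches that are apart in the genome. A span over 60 bases was seen for 12 of the 78 collagen probes, among them a Col4a4 probe whose span was only 62 bases.

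Further probes that carry the results below are shown in lower case throughout, because they read parts of the chains without a run of the repeat. The first, of Col2a1, is the probe on which that gene was tested. The next, of Col1a1 and Col3a1, are the second tested probes of these genes and are set against the first ones below. Those of Col4a1 and Col4a2 are likewise second probes, and the Col4a1 probe also joins separated stretches.
Col2a1: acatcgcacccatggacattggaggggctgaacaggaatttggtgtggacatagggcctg
Col1a1: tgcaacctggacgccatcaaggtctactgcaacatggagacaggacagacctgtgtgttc
Col3a1: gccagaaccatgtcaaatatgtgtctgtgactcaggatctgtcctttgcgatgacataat
Col4a1: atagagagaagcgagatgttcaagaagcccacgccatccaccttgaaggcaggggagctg
Col4a2: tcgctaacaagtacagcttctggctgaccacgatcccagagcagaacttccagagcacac
Their mm7 positions are chr15:97979237-97979296 (minus strand), chr11:95059777-95059836 (plus), chr1:45558167-45558226 (plus), chr8:11167857-11169691 (minus) and chr8:11416191-11416250 (plus). Exons are not given, since no mm7 annotation was used.

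Adrenalectomized and sham hearts did not differ in any collagen past the threshold of 0.05. With limma's moderated test and Benjamini-Hochberg adjustment over all genes, 0 of 30 collagens were higher and 0 were lower, where 7 of 16948 genes, or 0.0413%, passed in either direction. The smallest adjusted p among collagens was 0.294. Most fibrillar collagens had lower values in adrenalectomized hearts (7 of 9, median difference -0.19) and most type IV collagens had higher values (4 of 5, median difference 0.06), while the other collagens were split (9 of 16 lower, median difference -0.11). Over all genes the median difference was 0.03 and 44.2% of genes had lower values. Of the 4 type IV collagens with higher values, Col4a4 (0.02, SE 0.12) lay below that median. Col4a6 (0.06, SE 0.15) lay within its SE of 0. At an unadjusted p under 0.05 there was 1 collagen with a higher value, Col9a1, where 6.07% of all genes were in this class. Col9a1 was tested only through its adrenalectomized arrays, so nothing is read from this count, and among collagens with a probe well above background on all 6 arrays it was 0. There were 3 collagens with lower values, Col2a1, Col3a1 and Col4a5, where the share over all genes was 6.12%. The 3 adrenalectomized values lay above the 3 sham values for 0 of 30 collagens, against 10.0% of all genes, and below them for 4 of 30, namely Col2a1, Col3a1, Col5a1 and Col4a5, against 8.08% of all genes. With 3 against 3 hearts the smallest two-sided p of an exact permutation test for any gene is 0.1.

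**Figure D1:**
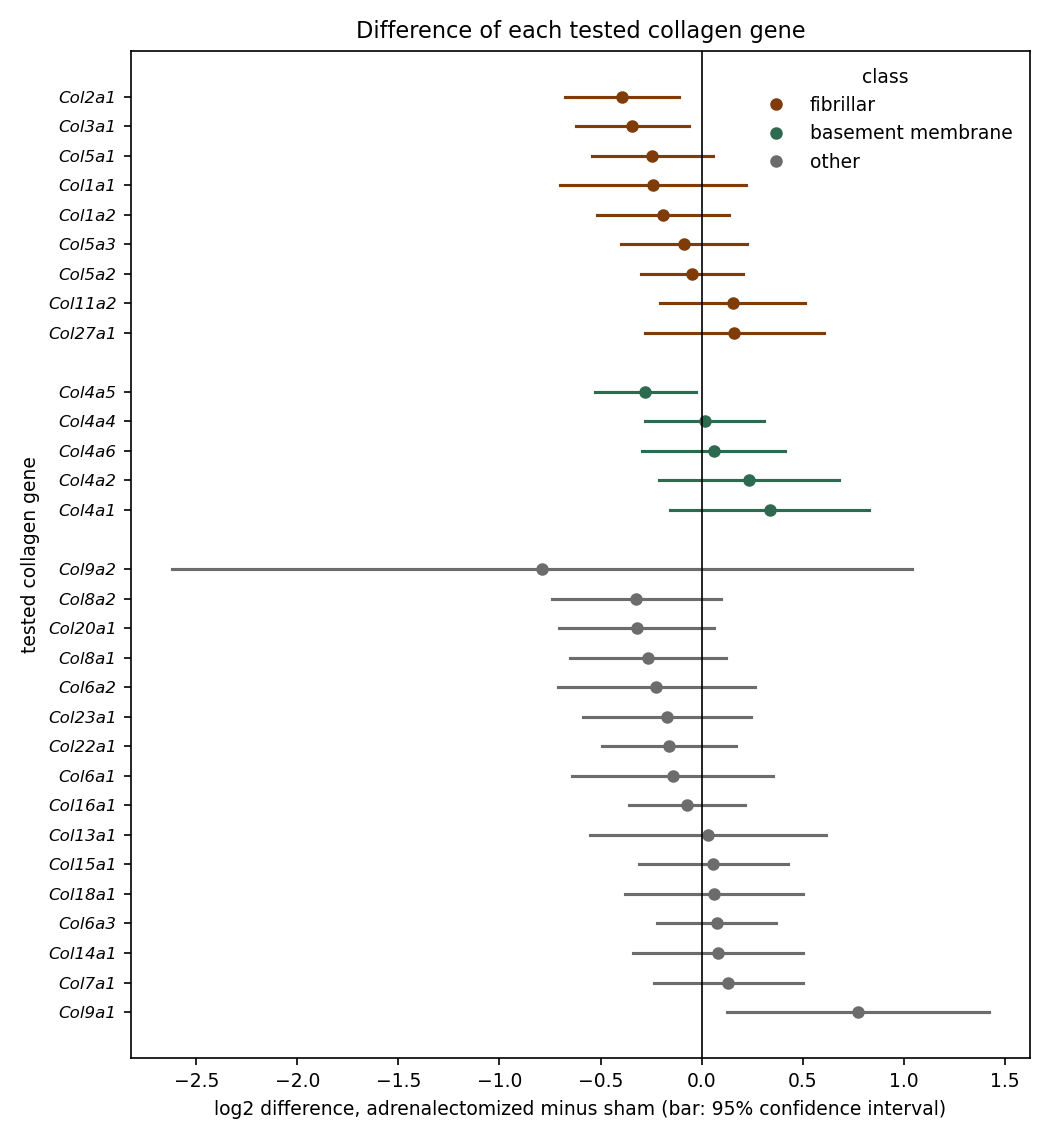
Log2 difference (adrenalectomized minus sham, horizontal axis) of each of the 30 tested collagen genes, ordered within the 3 classes. Points are the fitted differences and bars their 95% confidence intervals. Among fibrillar and type IV collagens only the intervals of Col2a1, Col3a1 and Col4a5 exclude 0, before any adjustment for the number of genes. The interval of Col9a1 is not read, because its probe was well above background on no sham array and the change is given as a bound.

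Among the fibrillar collagens, the type I, III and V chains of the heart's fibres all had lower values on their brightest probes. Col3a1, the single chain of type III collagen, which makes thin extensible fibres, had log2 levels of 4.12, 4.33 and 4.22 in adrenalectomized hearts, against 4.42, 4.68 and 4.60 in sham hearts. The groups did not overlap, and the difference was -0.34 (SE 0.12, limma adjusted p = 0.341). This is 1.27-fold higher in sham, with a 95% confidence interval from 1.04-fold to 1.54-fold. Within the first slide the difference was -0.44. Its second probe, far upstream in the gene, gave 0.13 (SE 0.19). That probe was well above background on the 3 adrenalectomized arrays but on only 1 sham array, so it is no check on the bright probe.

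Type I collagen, the most abundant protein of the cardiac scar and of stiff fibres, is made of the chains encoded by Col1a1 and Col1a2. Col1a1 had levels of 2.79, 3.00 and 3.21 in adrenalectomized hearts, against 2.98, 3.62 and 3.11 in sham hearts. The groups overlapped, and sham replicate 2 lay well above the other hearts (difference -0.24, SE 0.19, limma adjusted p = 0.654). The second Col1a1 probe, whose sequence is printed above, read -0.01, 0.02 and -0.12 in adrenalectomized hearts, against 0.10, 0.40 and 1.00 in sham hearts. Here the groups did not overlap, and the difference was -0.54 (SE 0.22, limma adjusted p = 0.362 over all probes). This second probe has 1 spot on each array, and the first has 10. The order of the sham hearts was not the same for the 2 probes: sham replicate 2 was highest on one and sham replicate 3 on the other. Col1a2 had levels of 4.39, 4.52 and 4.64 in adrenalectomized hearts, against 4.52, 4.92 and 4.68 in sham hearts, again with sham replicate 2 on top. Its difference was -0.19 (SE 0.14, limma adjusted p = 0.612). Within the first slide, Col1a1 and Col1a2 differed by -0.45 and -0.32, and without sham replicate 2 by -0.050 and -0.083.

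Type V collagen sets the diameter of type I fibres, and its 3 chains gave unequal values. Col5a1 had levels of 1.73, 1.85 and 1.77 in adrenalectomized hearts, against 1.88, 2.24 and 1.96 in sham hearts. All adrenalectomized hearts lay below the sham hearts, by a difference of -0.24 (SE 0.13, limma adjusted p = 0.490). The Col5a1 probe in the triple helix agreed in sign and also separated the groups (-0.33, SE 0.13, adjusted p = 0.332 over all probes), and its 3 adrenalectomized levels were nearly equal, with an SD of 0.019. Col5a2 had levels of -0.29, -0.33 and -0.32 in adrenalectomized hearts, against -0.40, -0.22 and -0.18 in sham hearts. Sham replicate 1 lay below the adrenalectomized hearts and the other sham hearts above them, with a difference of -0.05 (SE 0.11, limma adjusted p = 0.891). Col5a3 had levels of 1.94, 1.97 and 1.99 in adrenalectomized hearts, against 1.97, 1.88 and 2.29 in sham hearts. Its difference of -0.09 (SE 0.13, limma adjusted p = 0.827) came with sham replicate 3 above all other hearts.

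Col2a1, the chain of the type II collagen typical of cartilage, had the largest negative difference of the fibrillar class. Its levels were -0.58, -0.52 and -0.78 in adrenalectomized hearts, against -0.27, -0.11 and -0.32 in sham hearts. The groups did not overlap, and the difference was -0.39 (SE 0.12, limma adjusted p = 0.294), with -0.35 within the first slide. The first probe is spotted 10 times on each array. A second probe, which overlaps the first in sequence, gave -0.10 (SE 0.16) with overlapping groups. Among 7 cartilage markers, Matn1, Matn3 and Hapln1 were not well above background throughout either group, and 3 of the 4 tested ones had lower values (median -0.22). The summed level of those 4, in multiples of the 75th percentile, ran from 2.61 to 6.06 in adrenalectomized hearts and from 3.67 to 4.21 in sham hearts. Comp, the brightest of the 4, weighed most in it, with log2 levels of 0.94, 2.45 and 1.00 in adrenalectomized hearts. In sham hearts Comp had 1.67, 1.73 and 1.58. Sox9, the transcription factor that drives Col2a1 in cartilage, differed by -0.60 (SE 0.14, limma adjusted p = 0.230) without overlap, and Acan, the cartilage proteoglycan, by 0.41 (SE 0.22, adjusted p = 0.498). The part of cartilage-like cells in the Col2a1 values was not tested.

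The 2 remaining tested fibrillar collagens had higher values and overlapping groups. Col11a2, a type XI chain of cartilage fibrils, differed by 0.15 (SE 0.15, limma adjusted p = 0.715), and its triple-helix probe, well above background on the 3 adrenalectomized but only 2 sham arrays, gave 0.26. Col27a1, a less common fibrillar collagen, differed by 0.16 (SE 0.19, limma adjusted p = 0.764) but by -0.20 within the first slide. Without adrenalectomized replicate 1 its difference was 0.35, and without adrenalectomized replicate 2 it was 0.00075. Col11a1 and Col24a1 were not well above background on any array.

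**Figure D2:**
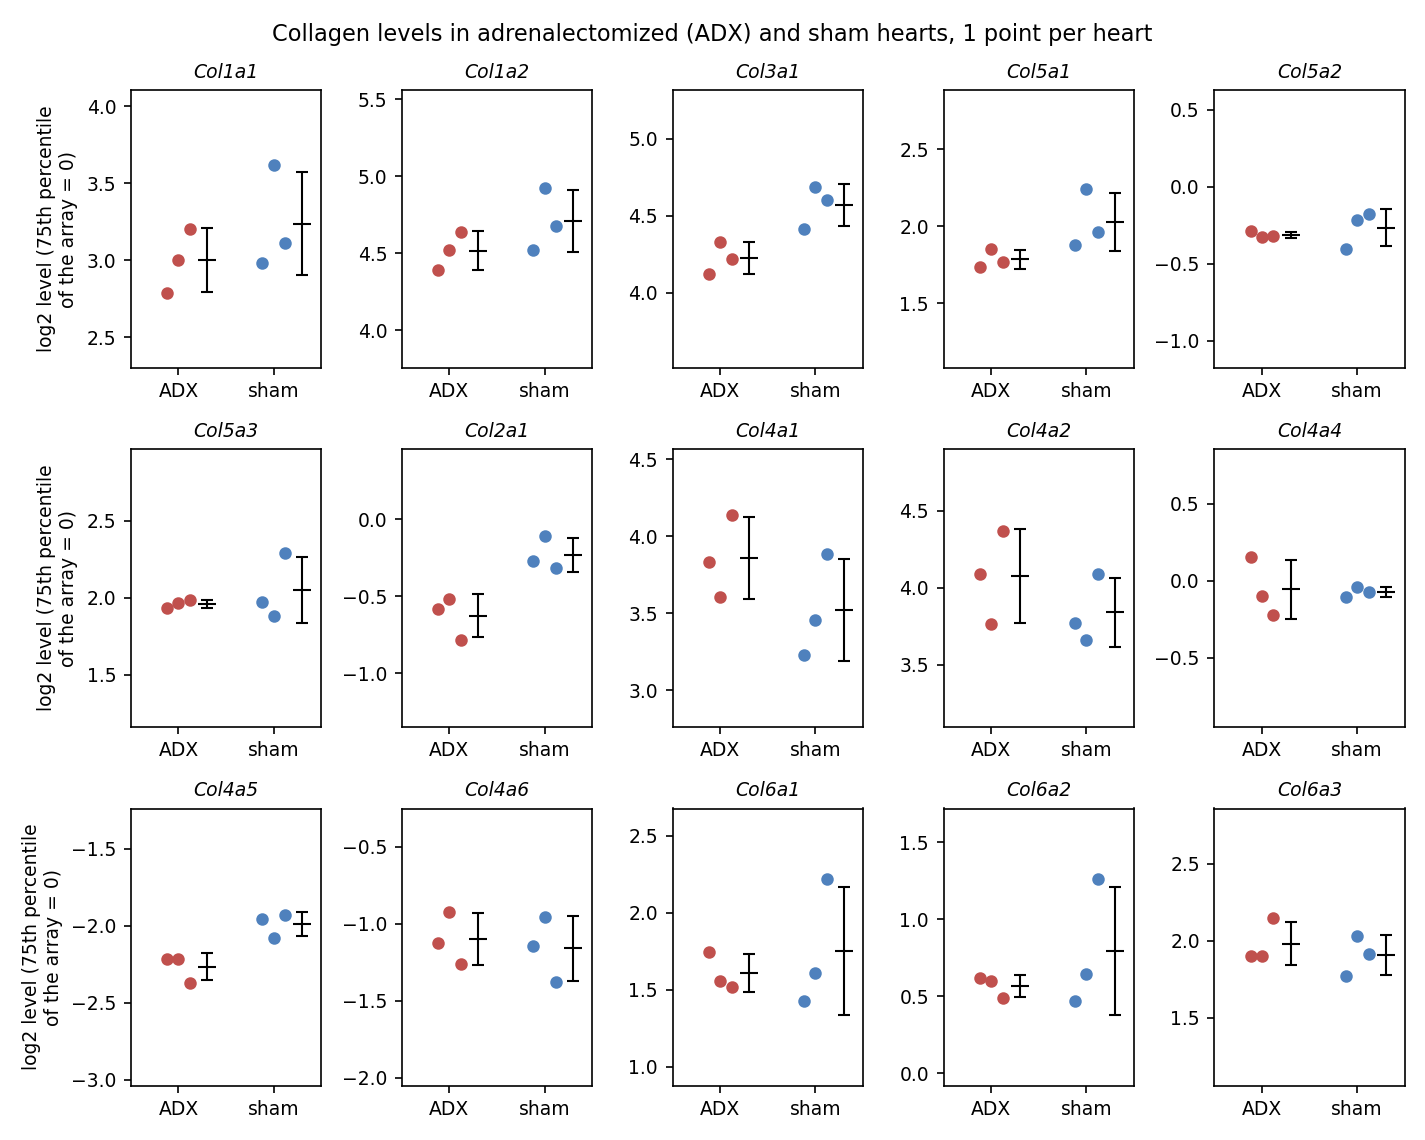
Log2 levels (vertical axis, 0 is the 75th percentile of the array) of the named type I, II, III, V, IV and VI collagens, with adrenalectomized hearts (ADX, red) left of sham hearts (blue). Each point is a heart, the black marks give the mean and SD of 3 hearts, and every panel spans the same number of log2 units. The groups separate for Col3a1, Col5a1, Col2a1 and Col4a5 and overlap in the other panels.

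The type IV collagens did not move together. The chains of the common network, Col4a1 and Col4a2, whose genes lie head to head and share a promoter region, had the largest positive differences of the class over all 6 arrays. Col4a1 had levels of 3.83, 3.60 and 4.14 in adrenalectomized hearts, against 3.23, 3.46 and 3.88 in sham hearts. The groups overlapped because sham replicate 3 exceeded 2 of the adrenalectomized hearts, and the difference was 0.34 (SE 0.21, limma adjusted p = 0.556). This is 1.26-fold higher after adrenalectomy, with a 95% confidence interval from 0.898-fold to 1.78-fold. Col4a2 had levels of 4.09, 3.77 and 4.37 in adrenalectomized hearts, against 3.77, 3.66 and 4.09 in sham hearts. Adrenalectomized replicate 3 was highest for both chains, and sham replicate 3 was the highest sham heart for both. The difference of Col4a2 was 0.23 (SE 0.19, limma adjusted p = 0.649). Without adrenalectomized replicate 3 the differences were 0.20 for Col4a1 and 0.086 for Col4a2, and Col4a2 then lay below Col4a6 (0.14) and Col4a4 (0.098). Without sham replicate 1 that of Col4a1 was 0.19, and without sham replicate 2 that of Col4a2 was 0.14, below Col4a6 (0.16).

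The second probes of this pair gave like values. For Col4a1 the second probe read 3.00, 2.70 and 3.29 in adrenalectomized hearts, against 2.51, 2.67 and 2.92 in sham hearts, a difference of 0.29 (SE 0.18). The second Col4a2 probe read 2.49, 2.35 and 2.85 in adrenalectomized hearts, against 2.25, 2.10 and 2.26 in sham hearts. On this probe the groups did not overlap, and the difference was 0.36 (SE 0.15, limma adjusted p = 0.369 over all probes). Within the first slide Col4a1 and Col4a2 differed by 0.31 and 0.25.

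The minor type IV chains, which form specialised networks best known from kidney and lens, gave other values. Col4a5, encoded on the X chromosome, had levels of -2.21, -2.22 and -2.37 in adrenalectomized hearts, against -1.96, -2.08 and -1.93 in sham hearts. All adrenalectomized hearts lay below the sham hearts, with a difference of -0.28 (SE 0.11, limma adjusted p = 0.372), or -0.22 within the first slide. Col4a6, the partner of Col4a5 in some basement membranes, had levels of -1.12, -0.92 and -1.26 in adrenalectomized hearts, against -1.15, -0.96 and -1.38 in sham hearts. The ranges nearly coincided, with a difference of 0.06 (SE 0.15, limma adjusted p = 0.903), and a second probe gave -0.08. Col4a4 had levels of 0.15, -0.10 and -0.22 in adrenalectomized hearts, against -0.10, -0.04 and -0.07 in sham hearts. The adrenalectomized hearts lay on both sides of the sham hearts, with a difference of 0.02 (SE 0.12, limma adjusted p = 0.974). Col4a3 was well above background on at most 3 arrays with any of its 3 probes and was not tested.

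Among the other collagens, type VI, which forms beaded filaments next to cell surfaces, had its largest values in 1 sham heart. Col6a1 had levels of 1.75, 1.55 and 1.52 in adrenalectomized hearts, against 1.42, 1.60 and 2.22 in sham hearts. Col6a2 had levels of 0.62, 0.60 and 0.49 in adrenalectomized hearts, against 0.47, 0.64 and 1.26 in sham hearts. Sham replicate 3 was highest for both chains and sham replicate 1 lowest, so each sham group enclosed the adrenalectomized hearts. The differences were -0.14 (SE 0.21, limma adjusted p = 0.821) and -0.22 (SE 0.21, adjusted p = 0.695), and without sham replicate 3 they were 0.09 and 0.01. Col6a3 had levels of 1.90, 1.90 and 2.14 in adrenalectomized hearts, against 1.77, 2.03 and 1.91 in sham hearts. It did not share the high value of sham replicate 3, and its difference was 0.08 (SE 0.12, limma adjusted p = 0.840).

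Type IX collagen sits on the surface of cartilage fibrils, and its chains had the most extreme differences of the family, both on dim or uneven spots. Col9a1 had levels of -3.67, -4.50 and -3.59 in adrenalectomized hearts, against -4.38, -4.69 and -5.00 in sham hearts. Its only probe was well above background on all 3 adrenalectomized arrays and on no sham array. It was tested only through the former, so the change is given as a lower bound on the observed values. This bound is 1.41-fold higher after adrenalectomy and carries no sampling error. For this bound each sham array contributed the weakest signal that any probe well above background had on it, or the signal of the Col9a1 probe where that was stronger. The groups overlapped by sham replicate 1 and adrenalectomized replicate 2, and the limma adjusted p of 0.353 belongs to the fitted difference of 0.77 (SE 0.27) and not to the bound. Normexp background correction turned the sign of this difference and called it lower (-0.93, limma adjusted p = 0.0435). Col9a2, chosen after its values were seen, had levels of -2.37, -2.29 and -2.33 in adrenalectomized hearts, against 0.49, -2.52 and -2.59 in sham hearts. Its difference of -0.79 (SE 0.77, limma adjusted p = 0.715) rested on sham replicate 1, where the spot had a processed intensity of 934.7, while the 3 adrenalectomized hearts had 148, 172 and 160 and the other sham hearts 112 and 153. The intensity of the pixels within that spot varied by 35.0% of its mean, and by 10.1% to 13.4% on the other arrays. Without sham replicate 1 the difference was 0.23 (SE 0.13, limma adjusted p = 0.678). Col9a3 was well above background on 1 array and was not tested.

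The remaining 11 tested members of this class had overlapping groups and differences between -0.32 and 0.13. Apart from Col20a1, those named here were chosen after their values were seen. The lowest were Col8a2, one of the chains of the type VIII network under endothelial cells, at -0.32 (SE 0.18, limma adjusted p = 0.505), and Col20a1, a collagen associated with fibrils, at -0.32 (SE 0.16, adjusted p = 0.479). Col20a1 had levels of -2.65, -2.52 and -2.38 in adrenalectomized hearts, against -2.20, -1.92 and -2.47 in sham hearts, so that only sham replicate 3 reached into the adrenalectomized range. Col8a1, the other type VIII chain, differed by -0.26 (SE 0.16, adjusted p = 0.556), although its second probe gave 0.05. Col15a1 and Col18a1, the multiplexins found at basement membranes, differed by 0.06 each (SE 0.16 and 0.19), and the second probe of either gave a negative value. The highest was Col7a1, the anchoring fibril collagen of skin, at 0.13 (SE 0.16, adjusted p = 0.767). Col10a1, Col12a1, Col17a1, Col19a1, Col25a1 and Col28a1 were not tested, and 4 of these 6, Col10a1, Col12a1, Col17a1 and Col28a1, were not well above background on any array.

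Different probes of a gene gave further readings of the same hearts. Of the 17 collagens with 2 tested probes, 11 gave the same sign with both and 6 did not, namely Col3a1, Col4a6, Col8a1, Col15a1, Col16a1 and Col18a1. The share with the same sign over all genes was not worked out, so nothing is read from this count. The 17 include Col3a1 and Col11a2, whose second probes were not above background on every sham array and are no check. They also include Col2a1, whose 2 probes overlap in sequence and are not separate readings. Taken one by one, 47 collagen probes were tested and 0 passed after adjustment over all probes. At an unadjusted p under 0.05, 2 collagen probes were higher, among them that of Col9a1, against 5.90% of all probes, and 5 were lower, against 7.58%. Both probes gave lower values for Col1a1, Col5a1, Col5a3, Col6a2, Col22a1 and Col23a1, and higher values for Col4a1, Col4a2 and Col4a4. The rest of the 11 are Col2a1 (lower) and Col11a2 (higher), under the limits just given. Col22a1 and Col23a1 are named here after their values were seen.

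**Figure D3:**
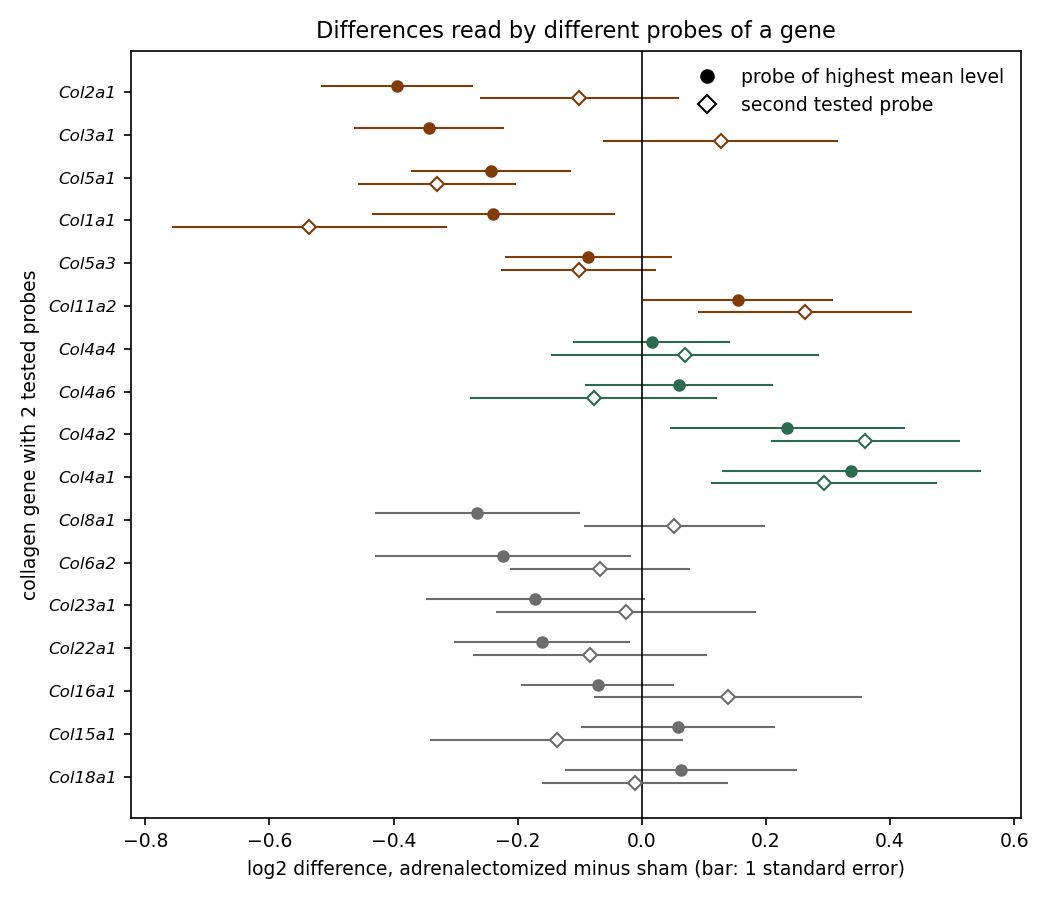
Log2 difference (adrenalectomized minus sham, horizontal axis) by probe for the 17 collagens with 2 tested probes. Filled circles are the probe of highest mean level, open diamonds the second tested probe, and bars 1 SE; fibrillar collagens are brown, type IV green and others grey. The 2 probes of Col4a1 and of Col4a2 all lie above 0, and both of Col1a1 and of Col5a1 lie below it.

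The class medians were also read heart by heart, as the median over the genes of a class of their distance from the sham mean. For the fibrillar collagens they were -0.30, -0.18 and -0.06 in adrenalectomized hearts, against -0.15, 0.13 and -0.03 in sham hearts. The groups overlapped, because sham replicate 1 lay lower than adrenalectomized replicate 3. For the type IV collagens they were 0.22, -0.03 and -0.10 in adrenalectomized hearts, against -0.03, -0.07 and 0.06 in sham hearts, so that adrenalectomized replicate 1 alone stood above the sham hearts. The other collagens had medians of -0.16, -0.07 and -0.03 in adrenalectomized hearts, against 0.03, 0.06 and -0.16 in sham hearts, again with overlap. With 1 array left out, the fibrillar median was between -0.28 (without sham replicate 1) and -0.08 (without sham replicate 2), and the type IV median between 0.02 (without sham replicate 3) and 0.15 (without adrenalectomized replicate 1). Within the first slide the class medians were -0.30 (fibrillar), 0.22 (type IV) and -0.16 (other), and 24 of the 30 collagens had the same sign as over all arrays. That count is no separate check, since all sham arrays and adrenalectomized replicate 1 enter both differences. Normexp correction of the local background, in place of the background subtraction in the deposited intensities, moved the fibrillar median to -0.0067, the type IV median to -0.032 and the median of the others to -0.22. Of the 5 tested type IV collagens, 2 had higher values there, Col4a1 and Col4a2. It called 2 of the 30 collagens higher, Col4a1 (0.66, limma adjusted p = 0.0496) and Col4a2 (0.57, adjusted p = 0.0498), and 8 lower, among them Col4a5 (-0.66), Col8a2 (-0.98) and Col9a1 (-0.93). In that fit 7.01% of all genes were called higher and 27.9% lower.

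**Figure D4:**
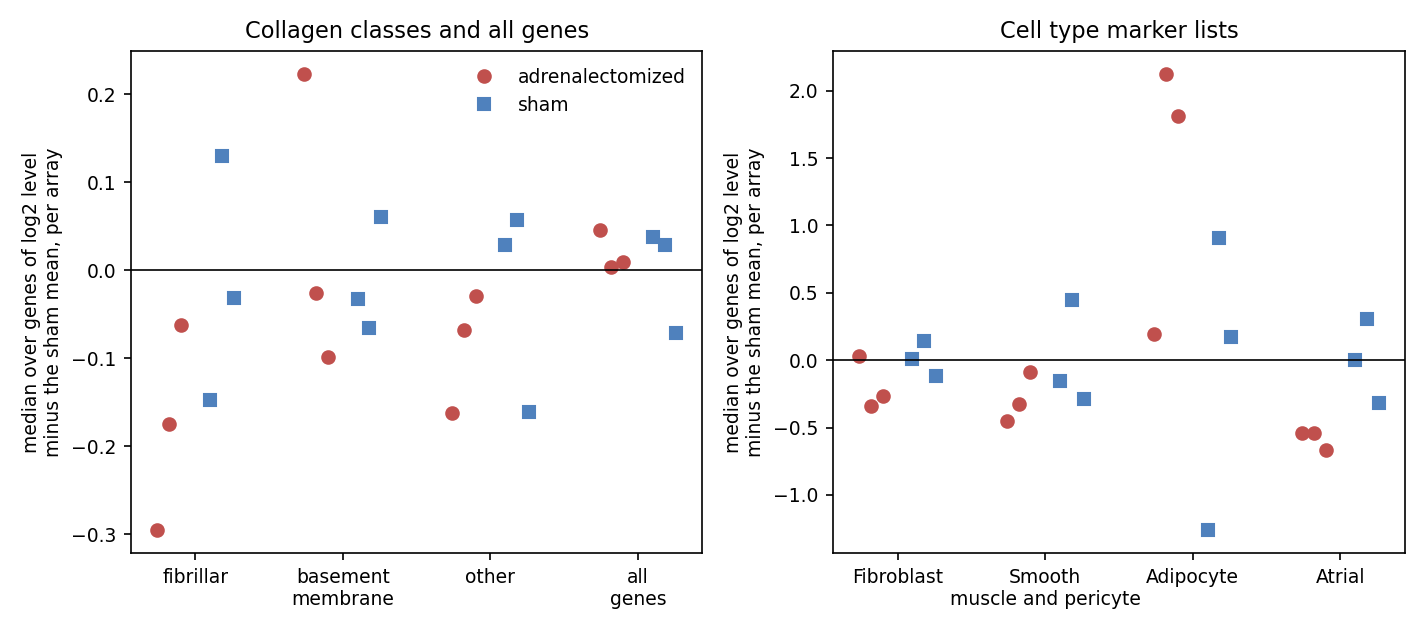
Median distance from the sham mean (log2, vertical axis) in each heart, with adrenalectomized hearts (red circles) left of sham hearts (blue squares), for the collagen classes and all genes in the left panel and for marker lists in the right panel, on separate scales. The fibrillar medians of the groups overlap, and the atrial medians do not.

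Fewer cells of a type and less RNA per cell cannot be told apart in whole-tissue RNA, so markers of the cells a heart sample can hold were read beside the collagens. None of the markers passed. The fibroblast markers, of the cells that make most cardiac collagen, had lower values for 8 of 10 (median -0.18). Their per-heart medians were 0.03, -0.34 and -0.27 in adrenalectomized hearts, against 0.01, 0.15 and -0.12 in sham hearts. Within the first slide their median was 0.03. Their summed level ran from 505 to 590 in adrenalectomized hearts and from 575 to 725 in sham hearts. Among them Dcn, a proteoglycan that coats collagen fibrils, differed by -0.32 (SE 0.13, limma adjusted p = 0.398) without overlap, and Dpep1 by -0.39 (adjusted p = 0.424). Smooth muscle and pericyte markers had lower values for 6 of 6 (median -0.29, summed level 68.7 to 95.6 in adrenalectomized and 70.6 to 145 in sham hearts), with Tagln at -0.69 and Rgs5 at -0.25. The per-heart medians of this list were -0.45, -0.33 and -0.09 in adrenalectomized hearts, against -0.16, 0.45 and -0.29 in sham hearts. Endothelial markers had lower values for 5 of 6 (median -0.18, summed level 43.7 to 54.8 in adrenalectomized and 54.4 to 57.1 in sham hearts), with Tek at -0.26 and Cdh5 at -0.20.

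Atrial markers had lower values for 4 of 4 (median -0.58, summed level 1068 to 1131 in adrenalectomized and 1357 to 2103 in sham hearts), with Nppa, atrial natriuretic peptide, at -0.71 and Sln at -0.62. Adipocyte markers had higher values for 8 of 8 (median 1.36), with per-heart medians of 0.20, 2.13 and 1.81 in adrenalectomized hearts, against -1.26, 0.90 and 0.17 in sham hearts. Their summed level ran from 405 to 752 in adrenalectomized and from 334 to 466 in sham hearts, with Ucp1, the uncoupling protein of brown fat, at 2.88 and Plin1, a lipid droplet protein, at 1.79. Within the first slide the medians were -0.54 for atrial, 0.20 for adipocyte, -0.45 for smooth muscle and pericyte, and -0.20 for endothelial markers. There they were -0.11 for cardiomyocyte, -0.45 for Schwann cell, 0.04 for epicardial and mesothelial, and -0.28 for cartilage markers. Cardiomyocyte markers had lower values for 5 of 7 (median -0.16, summed level 2696 to 3004 in adrenalectomized and 2919 to 3381 in sham hearts), with Tnni3 at -0.30 and Tnnt2 at -0.21. Schwann cell markers had lower values for 3 of 3 (median -0.22, summed level 0.684 to 0.843 in adrenalectomized and 0.84 to 0.987 in sham hearts), with Sox10 at -0.22. Epicardial and mesothelial markers had lower values for 3 of 4 (median -0.06, summed level 8.28 to 9.61 in adrenalectomized and 8.4 to 10.2 in sham hearts), with Upk3b at -0.33 and Upk1b at -0.11. The part of cell makeup in the collagen values was not tested.

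The machinery around collagen was read from 4 lists, and in each of them 0 members passed in either direction. Of 24 tested genes of collagen synthesis and processing, 9 had higher and 15 lower values (median -0.06). The lysyl hydroxylases modify collagen lysines before crosslinking. Plod1, the hydroxylase of helical lysines, had levels of 1.34, 0.98 and 1.36 in adrenalectomized hearts, against 0.56, 0.57 and 0.78 in sham hearts. All adrenalectomized hearts lay above the sham hearts, with a difference of 0.59 (SE 0.14, limma adjusted p = 0.230). Plod2, the hydroxylase of telopeptide lysines, had levels of -0.51, -0.60 and -0.59 in adrenalectomized hearts, against -0.15, -0.30 and -0.17 in sham hearts. Here all adrenalectomized hearts lay below the sham hearts, with a difference of -0.36 (SE 0.10, limma adjusted p = 0.270). Plod3, chosen after its values were seen, differed by 0.09 (SE 0.13, limma adjusted p = 0.812) with overlapping groups, over 2 adrenalectomized and 3 sham arrays because an outlier spot was left out.

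Of 9 tested collagen receptors, 3 had higher and 6 lower values (median -0.13), with the discoidin receptor gene Ddr1 at -0.29 (SE 0.17, limma adjusted p = 0.538) and the inhibitory receptor gene Lair1 at -0.39 (SE 0.27, adjusted p = 0.593). Other basement membrane proteins, the partners of type IV collagen, had higher values for 11 of 17 and lower values for 6 (median 0.05). Fbln1, a fibulin among those with lower values, differed by -0.27 (SE 0.14, limma adjusted p = 0.501), and no member with a higher value is named here. Of 18 tested collagen-binding proteoglycans and glycoproteins, 6 had higher and 12 lower values (median -0.05). Dcn, Lum and Dpt are also among the fibroblast markers and Comp among the cartilage markers, so these lists are not separate readings. Podn, a small leucine-rich proteoglycan, had levels of -1.33, -1.63 and -2.29 in adrenalectomized hearts, against -1.19, -0.48 and -1.01 in sham hearts. The groups did not overlap, and adrenalectomized replicate 3 was the lowest heart (difference -0.86, SE 0.28, limma adjusted p = 0.327).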

How the data were processed

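Heart RNA of 3 adrenalectomized and 3 sham mice was amplified, labelled with Cy3 and hybridised, per the labels' protocols. The deposited intensity of each spot is background-subtracted and detrended within its array by Agilent Feature Extraction 9.5.3.1, per the file headers (9.5 per the submitters' processing notes), and is not normalized between arrays. The deposited value table held the same intensities.

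Log2 intensities were centred on the 75th percentile of their array, without outlier spots (80 to 133 on an array), and repeat spots were averaged. Probes on RefSeq accessions took current symbols (22951 of 41174), except collagen probes, which kept the name of the design. The groups were compared with limma 3.58.1 (lmFit, eBayes; R 4.3.3), which was tested on simulated data. The collagens, classes, gene and marker lists were chosen with earlier results of these data known. Text names every tested type I, III, IV, V and VI collagen, the 5 of smallest p per direction, every collagen whose groups do not overlap, and 2 genes of smallest p per list. Some genes that this rule names are not reported here. Alternatives covered background, scaling, filters, probes, slide, replicate block, variance model, threshold and each array left out; 1 was added after seeing the data.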

Additional observations from a re-analysis of the deposited data

How the results depend on the processing

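Normexp background correction (offset 50) gave 1188 higher and 4729 lower genes, 2 higher and 8 lower collagens, and medians of -0.0067 for fibrillar, -0.032 for type IV and -0.22 for other collagens. It turned the sign of Col5a1 (0.028), Col1a2 (0.17), Col1a1 (0.084), Col11a2 (-0.74), Col27a1 (-0.85), Col5a3 (0.18), Col4a6 (-0.14), Col4a4 (-0.032), Col9a1 (-0.93) and Col6a1 (0.10). After it, the 10th percentile of the intensity was 148, 74.6 and 82.1 on adrenalectomized and 423, 155 and 554 on sham arrays; the cause was not tested. No other setting called a collagen. The slide as a block and slide 1 alone put the type IV median at 0.22, Col27a1 at -0.20 and Col6a3 at -0.0080. Median centring gave -0.020 for Col4a4, and the mean of probes -0.0088 for Col4a6.

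Counts over all genes, 5 higher and 2 lower, moved more. Higher genes numbered 2 with quantile normalization, 3 with median centring, 41 on slide 1 alone, 23 at an adjusted p under 0.1, and 0 with the percentile taken over detected probes, only probes above background on all 6 arrays, no filter, the mean of probes, outlier spots kept, slide block, replicate block, or every probe on its own. Lower genes numbered 5 with median centring, 7 with a variance trend, 11 at an adjusted p under 0.1, and 1 with probes above background on all 6 arrays, no filter, slide block, replicate block, or every probe on its own.

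With an array left out there were 0 to 39 higher and 1 to 6 lower genes, and 0 collagens called. Class medians ran from -0.28 to -0.08 (fibrillar), 0.02 to 0.15 (type IV) and -0.13 to -0.05 (other). Signs turned for Col4a4 without adrenalectomized replicate 1 or sham replicate 1 (range -0.088 to 0.098), Col4a6 without adrenalectomized replicate 2 or sham replicate 3 (-0.051 to 0.16), Col6a3 without adrenalectomized replicate 3 (-0.0063 to 0.14), and, without sham replicate 3, Col5a3 (-0.17 to 0.036), Col6a2 (-0.38 to 0.012) and Col6a1 (-0.31 to 0.092). Without Col9a1 and Col9a2, a setting chosen after seeing the data, the median of the other collagens was -0.11.

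Deviations from the group means correlated between same-numbered hearts at 0.157, 0.163 and -0.16. With so few hearts, these values cannot decide whether the numbers pair them. In this balanced design a replicate block cannot change the fitted difference of a gene read on all arrays, so the fibrillar median stayed at -0.19. The block called 0 higher and 0 lower collagens.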
